A study of Mus musculus with 39 samples.

Results

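The genes described here are 10 enzymes of glycolysis and its last step to lactate: the testis forms Ldhc, Pgk2, Gapdhs and Aldoart1, their widely expressed paralogs Ldha, Pgk1, Gapdh and Aldoa, and 2 enzymes with no paired form among them, Hk1 and Pgam2. They were listed by gene symbol, and all 10 were found among the 32285 features of the single-cell tables. The study deleted Kdm6a, an X-linked gene for a demethylase of lysine 27 on histone H3, in mouse germ cells. Whole testis was dissociated and profiled by droplet sequencing of RNA 3' ends in 1 control library (Kdm6a fl/y; Cre-) and 1 conditional knockout (cKO) library (Kdm6a fl/y; Ddx4-Cre+). Both carry the floxed allele, and only the cKO carries Cre, whose Ddx4 driver is active in germ cells and not in Leydig or Sertoli cells. The age of the mice and the number pooled in each library are not given in the labels. Sorted cKIT+ spermatogonia of the same genotypes gave ATAC-seq lists (open chromatin) and CUT&Tag lists for the repressive mark H3K27me3, each from 2 control and 3 cKO libraries, and 1 control library made with IgG.

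Glycolysis splits glucose into pyruvate with a small gain of ATP, and lactate dehydrogenase turns pyruvate into lactate while restoring the NAD that the pathway consumes. Sperm rely on this route in the tail, where several steps are carried out by enzymes made only in germ cells. Some of these, such as Pgk2 and Aldoart1, are intronless copies that arose from the RNA of an older gene. The parent of Pgk2, Pgk1, lies on the X chromosome, which is silenced in pachytene spermatocytes.

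The control library held 229882646 UMIs (unique molecular identifiers, each counting 1 captured RNA molecule) and the cKO library 172368722. Barcodes with at least 3000 UMIs numbered 11252 and 8520 and held 57.8% and 57.5% of the UMIs, and 30 of these barcodes occurred in both libraries. After a limit on mitochondrial RNA, 11181 and 8444 cells were assigned to stages by marker genes. The gates held, in control and cKO, 197 and 178 spermatogonia, 490 and 164 early spermatocytes, 1418 and 1104 pachytene spermatocytes, 1163 and 931 late spermatocytes, 1743 and 1654 round spermatids, and 4338 and 3189 elongating spermatids. When Leiden clusters were named from the same markers, 49.6% of the late spermatocytes kept that name, against 78.9% to 96.3% for the other stages. Control late spermatocytes held 2987 CPM (UMIs per 1000000) of pachytene markers and 1488 of their own. Differences between pachytene and late spermatocytes thus depend on the gate. Leydig cells, the testosterone-making cells between the tubules, numbered 100 and 99. They lack the germ-cell enzymes, so their level of a testis form measures RNA from other cells in the droplets. Kdm6a had 300 UMIs in all control cells (2.26 per 1000000 UMIs, written CPM from here) and 63 in all cKO cells (0.638 CPM), and in early spermatocytes 43.9 and 5.20 CPM. A 3' tag need not lie in the deleted part of the gene, so these values do not measure the recombination itself. Levels are given in CPM, a scale on which genes can be compared without a correction for length, since each molecule is counted once at its 3' end. With 1 library per genotype no test between genotypes was possible, and every interval is a 95% counting interval that leaves out differences between animals.

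The starts of 3 pairs are shown first, because their chromatin separated the testis forms from the paralogs. Each line is the 250 bases before the first listed RefSeq start (build GRCm38.p6, the mm10 assembly), 5' to 3' on the strand of the gene. Capitals mark 4 motifs searched on both strands: TGACGT, the core of the cAMP response element, with its full form TGACGTCA, which contains it; GGGCGG, the GC box; and CCAAT. Ldhc is at chr7:46861013-46861262 on the + strand, Ldha at chr7:46845554-46845803 on the + strand, Pgk2 at chr17:40208610-40208859 on the - strand, Pgk1 at chrX:106186850-106187099 on the + strand, Gapdhs at chr7:30743682-30743931 on the - strand and Gapdh at chr6:125165774-125166023 on the - strand.
Ldhc: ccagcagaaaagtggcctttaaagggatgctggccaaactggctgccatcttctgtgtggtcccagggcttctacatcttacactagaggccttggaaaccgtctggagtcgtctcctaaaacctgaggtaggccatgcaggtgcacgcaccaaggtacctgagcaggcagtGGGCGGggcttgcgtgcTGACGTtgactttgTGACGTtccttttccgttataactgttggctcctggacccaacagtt
Ldha: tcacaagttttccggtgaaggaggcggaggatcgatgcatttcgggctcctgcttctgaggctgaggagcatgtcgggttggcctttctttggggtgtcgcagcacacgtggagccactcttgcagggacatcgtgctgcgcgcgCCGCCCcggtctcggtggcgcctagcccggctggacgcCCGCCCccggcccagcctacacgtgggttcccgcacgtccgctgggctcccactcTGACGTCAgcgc
Pgk2: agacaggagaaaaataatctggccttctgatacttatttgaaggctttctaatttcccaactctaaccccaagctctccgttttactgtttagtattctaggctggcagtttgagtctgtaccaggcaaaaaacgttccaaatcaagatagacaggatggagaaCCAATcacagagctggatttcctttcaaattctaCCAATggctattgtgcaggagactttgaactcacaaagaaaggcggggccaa
Pgk1: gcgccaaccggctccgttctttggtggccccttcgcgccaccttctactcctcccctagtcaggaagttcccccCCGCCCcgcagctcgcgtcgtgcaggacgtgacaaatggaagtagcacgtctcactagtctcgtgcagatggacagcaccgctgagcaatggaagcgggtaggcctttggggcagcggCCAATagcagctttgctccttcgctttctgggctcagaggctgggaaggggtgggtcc
Gapdhs: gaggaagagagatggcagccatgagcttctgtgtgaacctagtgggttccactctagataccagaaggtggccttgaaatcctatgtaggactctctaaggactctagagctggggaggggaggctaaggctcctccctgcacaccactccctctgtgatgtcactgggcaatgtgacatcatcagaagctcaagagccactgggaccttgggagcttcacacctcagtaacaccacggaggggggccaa
Gapdh: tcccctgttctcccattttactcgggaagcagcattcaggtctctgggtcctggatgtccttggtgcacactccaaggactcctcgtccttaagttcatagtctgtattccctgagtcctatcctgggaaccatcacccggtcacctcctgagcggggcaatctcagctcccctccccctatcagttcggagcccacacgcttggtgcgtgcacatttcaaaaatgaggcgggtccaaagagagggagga

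The Ldhc window held TGACGT at 2 places, at positions -61 and -47 from the start, and a GC box. The Ldha window held the full TGACGTCA, at position -12, and 2 GC boxes on the reverse strand. The Pgk2 window held CCAAT at 2 places, and the Pgk1 window held it at 1 place beside a GC box. Neither the Gapdhs nor the Gapdh window held any of these letters. Over all 32851 RefSeq windows of this length, 6.47% held TGACGT, 1.55% TGACGTCA, 32.7% GGGCGG and 33.8% CCAAT. The letters TATAAA, also searched, were in none of the 6 windows, against 12.4% of all windows. A match is a run of letters and not a measured binding site. The windows differed more in CG dinucleotides: 25 before Ldha and 17 before Pgk1, against 8 before Ldhc, 3 before Pgk2 and 1 before Gapdhs, with a median of 6 over all windows. Gapdh, with 8, equalled Ldhc. Ldha, Ldhc and Gapdhs have a second RefSeq start, not shown, with 9, 3 and 0 CG dinucleotides before it and none of the motifs. The contrast between Ldha and Ldhc thus depends on the start chosen.

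In cKIT+ spermatogonia no ATAC peak lay within 1 kb of any RefSeq start of Ldhc, Pgk2, Gapdhs or Pgam2, in any of the 5 libraries. Pgk1, Gapdh, Aldoa and Hk1 had a peak in all 5 libraries, and Ldha had one in 4 of 5. The library without a peak at Ldha, cKO 1, had the shortest list, with 14635 peaks. Over all 27025 genes with a start, the share with an ATAC peak ran from 28.6% in that library to 49.4% in cKO 3. The deposited fold enrichment of the peak at Pgk1 was 9.67 and 9.05 in the control libraries and 6.45, 8.60 and 7.49 in the cKO libraries. At Gapdh it was 3.60 and 3.64 in control and 3.37, 3.75 and 3.89 in cKO. These folds are the authors' values and were not compared between libraries. Apart from cKO 1 at Ldha, presence or absence of an ATAC peak was the same in all 5 libraries for each of the 9 genes.

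H3K27me3 regions were within 1 kb of a start for Hk1 alone. Hk1 has 2 recorded starts, and the mark was at the upstream one, in control library 2 (chr10:62378305-62380300) and cKO library 3 (chr10:62377621-62381346), while the ATAC peaks were at the downstream one in all 5 libraries. The other 3 H3K27me3 libraries and the IgG library had no region at Hk1. The 2 lists with a region there were the longest, with 18494 and 15368 regions, against 11118 to 14584 in the other H3K27me3 lists. The share of all genes with an H3K27me3 region within 1 kb ran from 7.91% to 15.0% over the 5 libraries and was 0.625% with IgG.

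**Figure D1:**
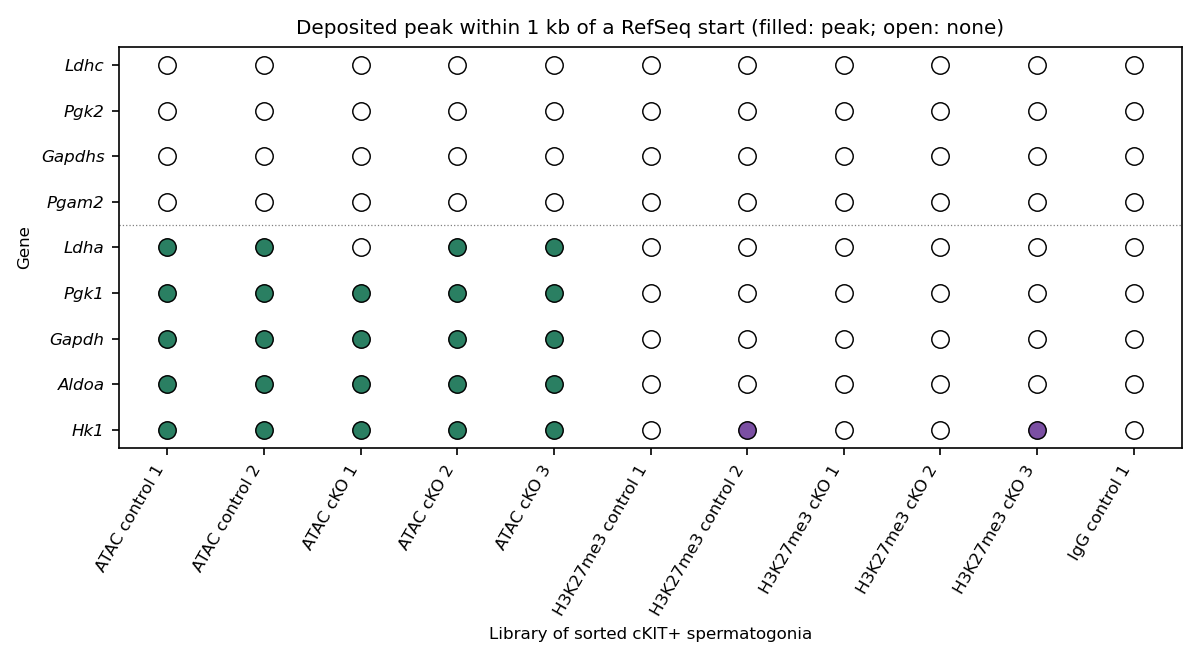
Presence of a deposited peak within 1 kb of a RefSeq start for 9 genes (rows) in 11 libraries of sorted cKIT+ spermatogonia (columns). Filled circles mark a peak. The rows of Ldhc, Pgk2, Gapdhs and Pgam2 are empty, and those of Pgk1, Gapdh, Aldoa and Hk1 are filled in all 5 ATAC libraries.

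Ldhc, the lactate dehydrogenase subunit of germ cells, was, as counted, the most abundant of the 10 genes in every germ-cell stage of both libraries. With free RNA subtracted as described for the pairs, it kept that place in pachytene and late spermatocytes and round spermatids only. Elongating spermatids then kept 85.2 CPM of Ldhc in control and 380 in cKO, against 2595 and 2680 of Gapdhs, and spermatogonia kept 0 of Ldhc against 333 and 410 of Gapdh. The free RNA estimated for Ldhc in spermatogonia exceeded its count, at 3481 against 1775 CPM in control and 3319 against 1779 in cKO. The estimate was thus too large there, and the Ldhc values left after subtraction may be too low. As counted, the control level of Ldhc was 1775 CPM in spermatogonia, 2389 in early spermatocytes, 7130 in pachytene spermatocytes, 8494 in late spermatocytes, 6659 in round spermatids and 3436 in elongating spermatids. The cKO library gave 1779, 2742, 7507, 9410, 7619 and 3416 in the same order. By these gates, both libraries were thus highest in late spermatocytes and lowest in spermatogonia. The control step from early to pachytene spermatocytes was 2.98-fold (2.91 to 3.06). Leydig cells held 1433 CPM in control and 2032 in cKO, so the spermatogonial level was 1.24 times (1.16 to 1.32) that of cells that should lack the gene in control and 0.876 times (0.821 to 0.935) in cKO. Control late spermatocytes were 5.93 times (5.62 to 6.26) the Leydig level. Barcodes with under 100 UMIs, which hold free RNA and no cell, gave 5566 and 5512 CPM, above the level in spermatogonia, early spermatocytes and Leydig cells of both libraries.

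Ldha, the subunit typical of muscle, was also highest in late spermatocytes, at a lower level. Its control values were 214, 266, 951, 995, 630 and 202 CPM from spermatogonia to elongating spermatids. In cKO they were 184, 320, 980, 1068, 707 and 187. Spermatogonia and elongating spermatids were thus the lowest stages, elongating spermatids in control and spermatogonia in cKO. Leydig cells held 181 and 289. Ldhc held between 88.2% and 94.8% of the pair's UMIs over the 12 combinations of stage and library. Its share was 88.8% (87.1 to 90.4) in control Leydig cells and 91.2% in free RNA, so the share alone did not separate germ cells from the background. Across the 12 combinations the log2 levels of Ldhc and Ldha had a Pearson correlation of 0.92, as a description of points that share libraries and background RNA. The genes are neighbours, with 5635 bases between them, and the sources used here do not say how reads matching both were assigned. Ldhc lies at chr7:46861263-46878147 and Ldha at chr7:46842274-46855627.

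**Figure D2:**
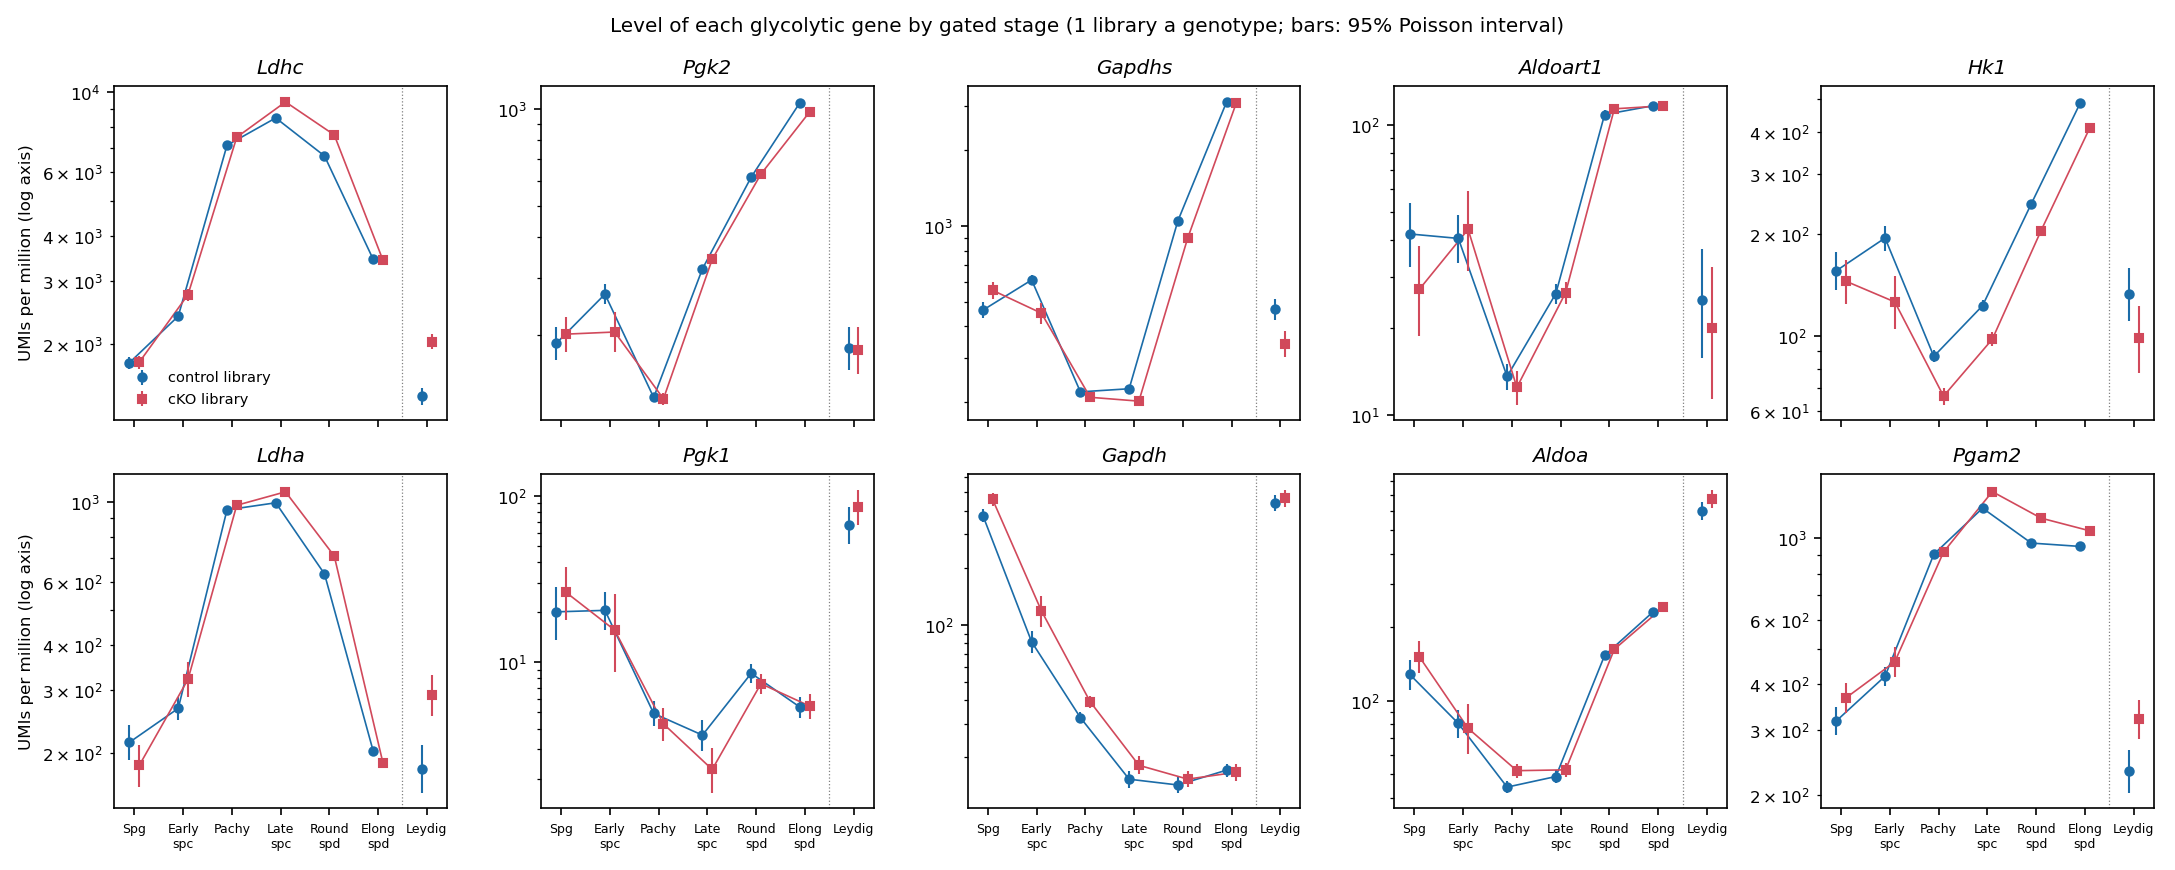
Level of each gene in CPM (log axis, own scale in each panel) by gated stage in the control (circles) and cKO (squares) library, with Leydig cells to the right of the dotted line and bars for the 95% Poisson interval. Ldhc and Ldha are highest in late spermatocytes, whereas Pgk2, Gapdhs and Hk1 are highest in elongating spermatids. Gapdh is lower in every later stage than in spermatogonia.

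Pgk2, the phosphoglycerate kinase of meiotic and later germ cells, makes ATP at the first energy-yielding step of glycolysis. It lies at chr17:40207018-40208609. Its control level was 188 CPM in spermatogonia, 267 in early spermatocytes, 128 in pachytene spermatocytes, 320 in late spermatocytes, 615 in round spermatids and 1046 in elongating spermatids. In cKO the values were 201, 204, 127, 342, 629 and 980. Both libraries were lowest in pachytene and highest in elongating spermatids, and control elongating spermatids were 8.18 times (7.91 to 8.47) the pachytene level. The free RNA estimated for Pgk2 in pachytene cells was 110 CPM in control and 107 in cKO, so the pachytene level was near the background. The Leydig level was 182 and 179 CPM, so spermatogonia were at 1.03 times (0.852 to 1.26) that of cells that should lack Pgk2 in control and 1.12 times (0.907 to 1.38) in cKO. Expression in spermatogonia was not detectable above this background. Per cell rather than in CPM, control pachytene cells held 2.49 Pgk2 UMIs, Leydig cells 1.68 and late spermatocytes 6.62.

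Pgk1, its X-linked parent, lies at chrX:106187100-106203699 and was the rarest of the 10 genes in pachytene and later cells. The control level was 20.1 and 20.5 CPM in spermatogonia and early spermatocytes, 4.93 in pachytene, 3.66 in late spermatocytes, 8.59 in round spermatids and 5.38 in elongating spermatids. In cKO it was 26.3, 15.6, 4.27, 2.27, 7.44 and 5.46. Leydig cells held 67.0 and 85.9. The control level in early spermatocytes was 4.16 times (3.00 to 5.71) that in pachytene cells, and round spermatids were 2.35 times (1.84 to 3.03) late spermatocytes. Early spermatocytes held 57 Pgk1 UMIs in 490 cells and pachytene cells 136 in 1418, with means of 5673 and 19453 UMIs per cell. The free RNA estimated for Pgk1 was 15.6 and 4.55 CPM in these stages, and 5.63 and 1.64 from barcodes of 500 to 2000 UMIs. How much of the first fold comes from free RNA is thus uncertain. In barcodes with under 100 UMIs Pgk1 was at 18.1 and 20.5 CPM, close to the spermatogonial value. The share of Pgk2 in the pair was 90.3% (86.6 to 93.3) in control spermatogonia, 96.3% in pachytene and 99.5% in elongating spermatids, and 88.4%, 96.7% and 99.4% in cKO. In Leydig cells it was 73.0% and 67.6%.

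Other X-linked genes with autosomal copies were measured beside this pair. Pdha2, the germ-cell copy of the pyruvate dehydrogenase gene Pdha1, held 8812 UMIs in control pachytene cells against 3 of Pdha1, and 5653 against 0 in cKO. For Pdha1 in cKO, the floor used for a count of 0 leaves room for up to 3 UMIs. The exact 95% interval of the Pdha2 share there began at 99.93%. Rpl10l, a copy of the ribosomal protein gene Rpl10, went from 30.4% of its pair in control spermatogonia to 98.0% in pachytene, with 25.9% and 98.5% in cKO. The copies Cstf2t and Utp14b lost their lead in round spermatids. Cstf2t had 98 UMIs there against 1303 of Cstf2 in control and 82 against 1080 in cKO, and Utp14b held 30.4% and 24.1% of its pair. Pgk2 stayed at 98.6% and 98.8% there, and the other copies measured kept their lead too. In control and cKO round spermatids Pdha2 held 99.8% and 99.9% of its pair and Rpl10l 93.9% and 94.5%. G6pd2, beside G6pdx, held 99.3% and 98.7%, and Rbmxl2, beside Rbmx, held 99.1% and 99.3%.

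Gapdhs encodes the glyceraldehyde 3-phosphate dehydrogenase that is bound to the fibrous sheath of the sperm tail, and lies at chr7:30729779-30744791. Its control level was 464, 612, 220, 226, 1051 and 3120 CPM from spermatogonia to elongating spermatids, and 556, 451, 209, 202, 896 and 3094 in cKO. The level was lowest in pachytene and late spermatocytes and was 14.2 times (13.8 to 14.6) higher in elongating spermatids than in pachytene cells in control. The step from late spermatocytes to round spermatids was 4.65-fold (4.52 to 4.78). In control, the free RNA estimated for Gapdhs was 220 of 220 CPM in pachytene cells and 206 of 226 in late spermatocytes. In cKO it was 194 of 209 and 156 of 202. The low values in these stages were thus near the background, and both folds are set against such values. Leydig cells held 467 and 341 CPM, and spermatogonia were at 0.993 times (0.880 to 1.12) that level in control and 1.63 times (1.41 to 1.88) in cKO. Barcodes with under 100 UMIs held 872 and 753 CPM. The gene overlaps Sbsn, which had 1228 and 767 UMIs in all, against 173985 and 119596 for Gapdhs.

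Gapdh, the widely used form, was highest in spermatogonia. It lies at chr6:125161852-125166467. Control values were 376 CPM in spermatogonia, 81.3 in early spermatocytes, 32.4 in pachytene, 15.4 in late spermatocytes, 14.3 in round spermatids and 17.2 in elongating spermatids, and cKO values were 457, 119, 39.3, 18.2, 15.4 and 16.7. Control spermatogonia were 24.5 times (21.5 to 28.0) late spermatocytes. In Leydig cells Gapdh was at 439 and 466 CPM, and in free RNA at 69.3 and 79.2. The level was thus above that of free RNA in spermatogonia and, from pachytene on, below it. Gapdhs held 55.2% (52.5 to 57.9) of the pair in control spermatogonia and 54.9% (52.0 to 57.7) in cKO, and 99.5% in elongating spermatids of both libraries. The Leydig share was 51.6% (48.1 to 55.0) and 42.3% (38.4 to 46.2).

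**Figure D3:**
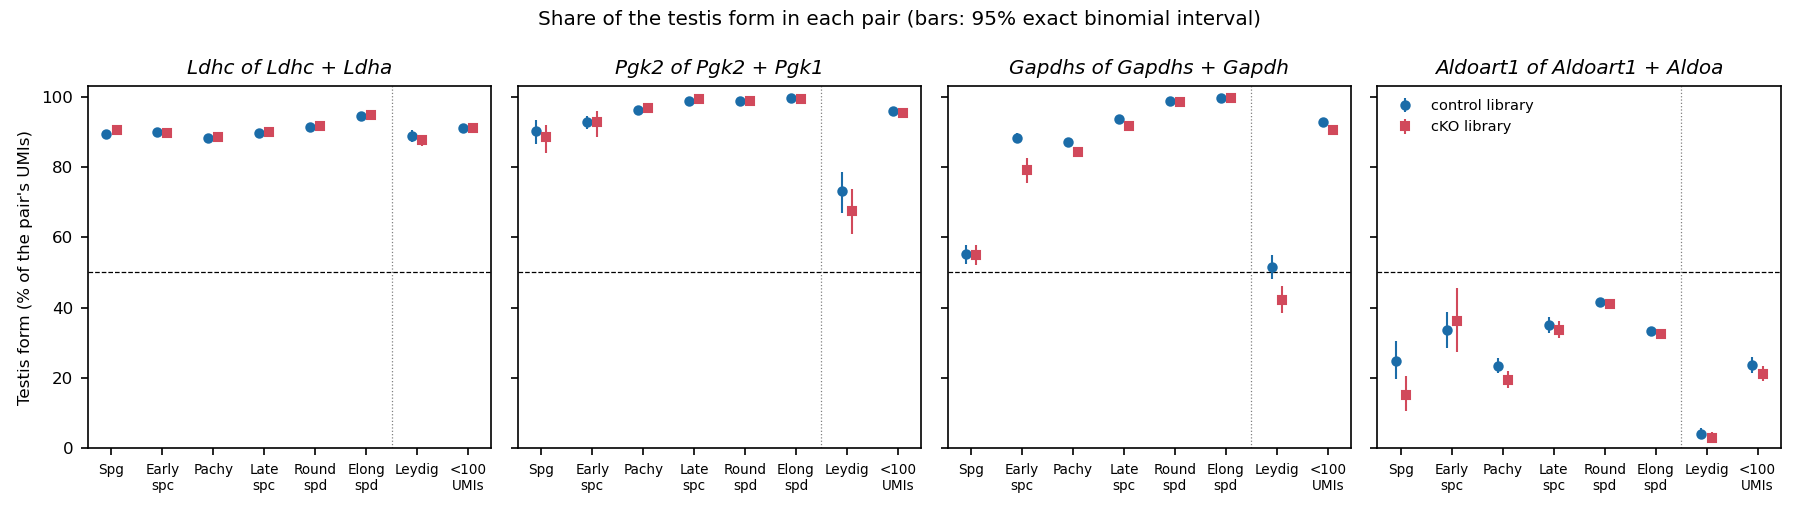
Share of the testis form in the UMIs of each pair (percent) by gated stage, in Leydig cells and in barcodes with under 100 UMIs, with 95% exact binomial intervals; the dashed line marks 50%. Ldhc, Pgk2 and Gapdhs are above 50% in all 6 germ-cell stages of both libraries, and Aldoart1 is below it in all of them.

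Aldoart1, an intronless aldolase at chr4:72850583-72852634, was the least abundant testis form. Its control level was 42.1, 40.6, 13.6, 26.3, 109 and 117 CPM from spermatogonia to elongating spermatids, and 27.1, 43.7, 12.5, 26.4, 114 and 116 in cKO. The step from late spermatocytes to round spermatids in control was 4.14-fold (3.80 to 4.51), and round and elongating spermatids were close in both libraries. Leydig cells held 24.9 and 19.9 CPM, from 23 and 16 UMIs. Aldoa, its paralog at chr7:126795234-126800994, was at 128, 80.6, 44.2, 48.8, 153 and 232 CPM in control and 151, 77.0, 51.6, 52.0, 162 and 241 in cKO, and at 601 and 675 in Leydig cells. Aldoart1 held 41.5% (40.4 to 42.6) of the pair in control round spermatids and 41.2% (40.0 to 42.3) in cKO, its highest share in each library. A second intronless copy, Aldoart2, held more UMIs than Aldoa in 4 of the 6 stages of each library, with 70.2% of the Aldoart2 and Aldoa UMIs in control round spermatids and 71.2% in cKO. The copies are close in sequence to their parent, so the counting could split reads among these 3 genes, and their values are uncertain. A second feature with the symbol Aldoa had 100 and 83 UMIs and was left out.

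As counted, the testis form exceeded its paralog in 36 of 48 combinations of pair, stage and library: 12 of 12 for Ldhc, Pgk2 and Gapdhs each, and 0 of 12 for Aldoart1. Part of these counts comes from RNA outside the cells, which is rich in the testis forms. With the free RNA of barcodes with under 100 UMIs subtracted, scaled so that it accounted for the protamine and transition protein UMIs of Leydig cells, 24 combinations were left. Ldhc then exceeded Ldha in 8 and Pgk2 exceeded Pgk1 in 8, from pachytene on in both libraries. Gapdhs exceeded Gapdh in 6, from late spermatocytes on, and Aldoart1 exceeded Aldoa in 2, early and late spermatocytes of 1 library each. With the profile of barcodes of 500 to 2000 UMIs in its place, a choice made after seeing the data, 16 were left. These were Ldhc from pachytene cells to round spermatids, Pgk2 from late spermatocytes on, and Gapdhs in round and elongating spermatids. In spermatogonia none of the 4 testis forms exceeded its paralog under either subtraction. Values below 0 were set to 0. Ldhc and Ldha were both at 0 in spermatogonia and early spermatocytes of both libraries under either subtraction. These combinations are ties and do not say which of the 2 was higher. From barcodes with under 100 UMIs, the free RNA estimated for Pgk2 in spermatogonia also exceeded its count. It was 272 against 188 CPM in control and 249 against 201 in cKO. For Gapdhs it was 545 against 464 CPM in control and 453 against 556 in cKO. In early spermatocytes it exceeded the count of either gene in each library. An estimate above the count is too large, so losses of this kind do not say which gene of the pair was higher.

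Hk1 codes for the hexokinase that commits glucose to the pathway, and lies at chr10:62268855-62379920. Its control level was 155, 194, 86.9, 123, 245 and 485 CPM from spermatogonia to elongating spermatids, and 145, 126, 66.4, 97.7, 204 and 410 in cKO. Elongating spermatids were thus the highest stage in both libraries, at 5.58 times (5.34 to 5.82) the pachytene level in control. The free RNA estimated for Hk1 in control pachytene cells was 50.9 of 86.9 CPM. From barcodes of 500 to 2000 UMIs it was 95.9, above the count. The size of this fold in the cells themselves is thus uncertain. Hk2, a second hexokinase, was rare, and Hk1 held 98.6% of the Hk1 and Hk2 UMIs in control pachytene cells and 99.4% in elongating spermatids. Counting at the 3' end cannot separate the germ-cell transcripts of Hk1 from its other transcripts. In control Leydig cells Hk1 was at 133 CPM.

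Pgam2, the muscle and testis form of phosphoglycerate mutase, lies at chr11:5801637-5803796. Control values were 318, 421, 903, 1206, 969 and 949 CPM, and cKO values were 368, 461, 916, 1337, 1133 and 1046. Its highest stage was late spermatocytes, as for Ldhc. As counted in CPM, elongating spermatids were at 1.05 times (1.03 to 1.07) the pachytene level in control, whereas Ldhc was lower there. Per cell, Pgam2 was lower in elongating spermatids, with 33500 UMIs in 4338 control cells against 24910 in 1418 pachytene cells. The widespread form Pgam1 had 227 UMIs in control spermatogonia, where Pgam2 held 68.4% (64.8 to 71.8) of the pair. Pgam1 was rare in later stages, with Pgam2 at 95.5% in control early spermatocytes and 98.5% in pachytene. The free RNA estimated for Pgam2 in spermatogonia exceeded its count, at 548 against 318 CPM in control and 516 against 368 in cKO. In control Leydig cells Pgam2 was at 232 CPM and held 35.6% (31.8 to 39.6).

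Round and elongating spermatids of both libraries were ordered together by the difference between their elongating and round marker scores and divided into 10 groups of equal size. The first group held 389 control and 704 cKO cells, and the last 491 and 601. Along this order Ldhc in control went from 7034 CPM in the first group to 4849 in the fifth and 1717 in the last, and in cKO from 7869 to 5117 and 1692. Gapdhs went the other way, from 822 to 2779 and 3602 in control and from 757 to 2675 and 3550 in cKO. Pgk2 was at 601, 942 and 1177 in control and 619, 861 and 1072 in cKO, and Hk1 at 231, 436 and 552 in control and 198, 341 and 464 in cKO. Aldoart1 was at 116, 116 and 117 in control and 119, 107 and 113 in cKO. Protamine and transition RNA made up 0.738% of the UMIs of the first control group and 24.7% of the last, and it enters the denominator. Left out of it, Ldhc in control was at 7086, 5940 and 2279 CPM and Gapdhs at 829, 3404 and 4781, in the same directions. Aldoart1 was then at 117, 142 and 155 in control and 119, 134 and 154 in cKO, so it was higher at the elongating end on this scale. Median UMIs per cell were 14981 in the first control group and 7527 in the last, and some directions differed when UMIs were counted per cell. From the first to the last group, Gapdhs went from 16.5 to 31.4 UMIs per cell in control and from 14.3 to 26.1 in cKO, and Ldhc from 140.7 to 15.0 and from 148.1 to 12.4, as in CPM. Leydig cells held 1325 Ldhc UMIs in 100 control cells and 1631 in 99 cKO cells. Per cell, Ldhc in the last group was thus near the background. Pgk2 was lower per cell in the last group, at 12.0 and 10.2 in control and 11.7 and 7.87 in cKO. Hk1 was at 4.62 and 4.81 in control and lower in cKO, at 3.72 and 3.41. Aldoart1 was lower in both, at 2.32 and 1.02 in control and 2.24 and 0.830 in cKO.

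**Figure D4:**
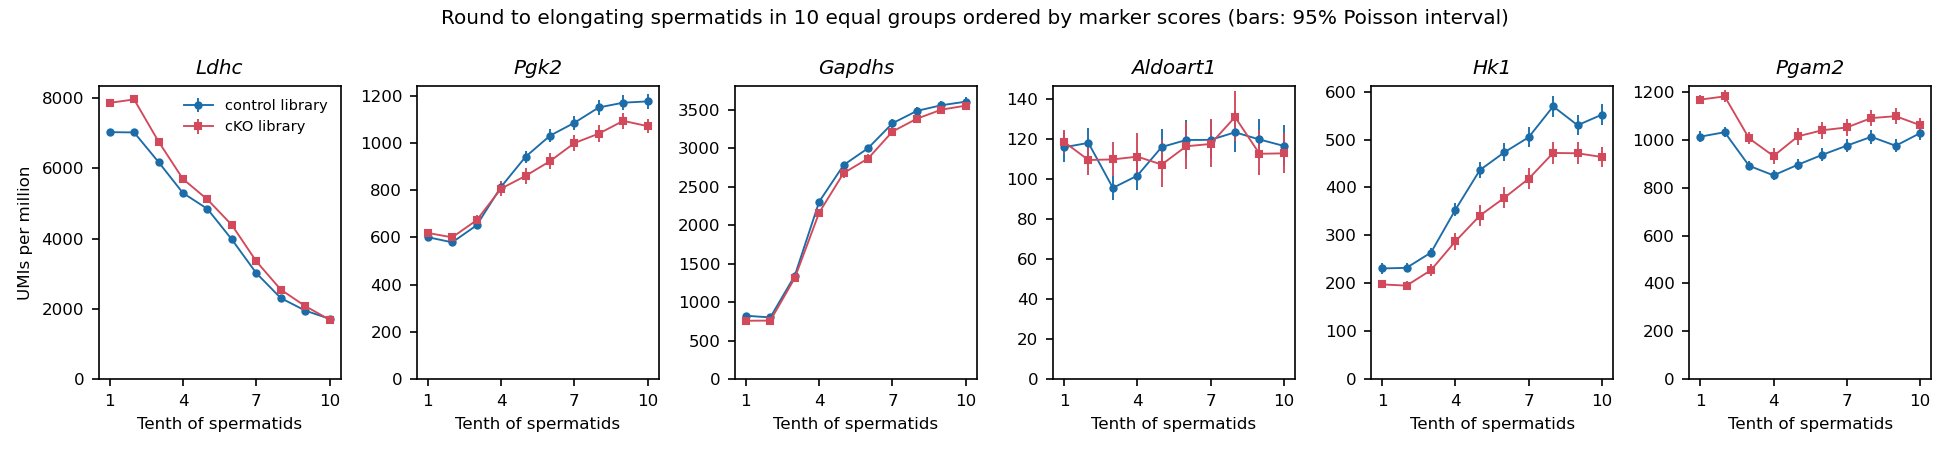
Level in CPM of 6 genes over 10 equal groups of spermatids ordered from round to elongating by marker scores, in the control (circles) and cKO (squares) library, with 95% Poisson intervals. In CPM, Ldhc is lower and Gapdhs, Pgk2 and Hk1 are higher at the elongating end in both libraries, though per cell Pgk2 in both libraries and Hk1 in cKO are lower there. Aldoart1 has no such slope in CPM.

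Between the libraries the 10 genes were close. Ratios are log2 of cKO over control with 1 CPM added, for genes with at least 20 CPM in the mean of both libraries, and a ratio past 1.5-fold is a description of 2 libraries. In spermatogonia 1 of 10 members was past 1.5-fold, where 9.96% of all 7291 genes were. In early spermatocytes 1 of 9 was, where 11.5% of all genes were. In pachytene and late spermatocytes, round and elongating spermatids 0 of 8 were in each, against 1.69%, 1.8%, 4.82% and 2.92% of all genes. Over all cells 0 of 9 were, against 2.14%. The 2 members past the fold were both lower in cKO, as were 591 of the 726 genes past it in spermatogonia and 601 of the 830 in early spermatocytes, and counts of 1 in 10 and 1 in 9 are near the background share. The members' median ratio ran from -0.01 in elongating spermatids to 0.15 in spermatogonia, and that of all genes from -0.07 in spermatogonia to 0.05 in round spermatids.

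Aldoart1 in spermatogonia had 65 control and 33 cKO UMIs, 42.1 against 27.1 CPM, which is -0.62 (-1.28 to -0.01) as a log2 ratio. Leydig cells held 24.9 and 19.9 CPM and barcodes with under 100 UMIs 47.4 and 41.8, so the spermatogonial values lay within the range of the background. Hk1 in early spermatocytes had 540 and 121 UMIs, 194 against 126 CPM, a log2 ratio of -0.62 (-0.92 to -0.34). The free RNA estimated for Hk1 there was 175 CPM in control and 128 in cKO, so these values too were near the background. Hk1 was lower in the cKO library in every stage, with ratios of -0.10 (-0.39 to 0.18) in spermatogonia, -0.38 (-0.49 to -0.29) in pachytene, -0.33 (-0.41 to -0.24) in late spermatocytes, -0.26 (-0.31 to -0.21) in round and -0.24 (-0.28 to -0.20) in elongating spermatids. It was also lower where the Cre driver is not active, at -0.43 (-0.86 to -0.02) in Leydig cells and -0.55 (-0.72 to -0.39) in Sertoli-gated cells, and in barcodes with under 100 UMIs, at -0.15 (-0.26 to -0.04). From these barcodes, the free RNA estimated for Hk1 in pachytene cells was 50.9 CPM in control and 47.1 in cKO. From barcodes of 500 to 2000 UMIs it was 95.9 and 74.6, above the counts of 86.9 and 66.4. The part of free RNA in the pachytene ratio was not tested. The Sertoli gate held 8.70% protamine and transition RNA in control and 8.59% in cKO, so it is a mixture. Leydig cells held 2.23% and 1.80%, so their Hk1 count also includes RNA from other cells and does not measure Hk1 of Leydig cells alone. With 1 library per genotype, genotype and library cannot be told apart.

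Small differences with narrow counting intervals were common among the members. Ldhc was at 0.15 (0.14 to 0.16) in late spermatocytes and 0.19 (0.19 to 0.20) in round spermatids. Pgam2 was at 0.15 (0.12 to 0.17) and 0.23 (0.20 to 0.25) in the same stages, and at 0.47 (0.20 to 0.74) in Leydig cells, where Ldhc was at 0.50 (0.40 to 0.61). Gapdhs was at -0.16 (-0.22 to -0.10) in late spermatocytes, -0.23 (-0.25 to -0.21) in round spermatids and -0.01 (-0.03 to 0.00) in elongating spermatids, and at -0.45 (-0.68 to -0.23) in Leydig cells. The direction in Leydig cells equalled that in round spermatids for all 3 genes; its part in the germ-cell values was not tested. Gapdh was at 0.28 (0.11 to 0.45) in spermatogonia, and Ldha at -0.21 (-0.47 to 0.03).

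**Figure D5:**
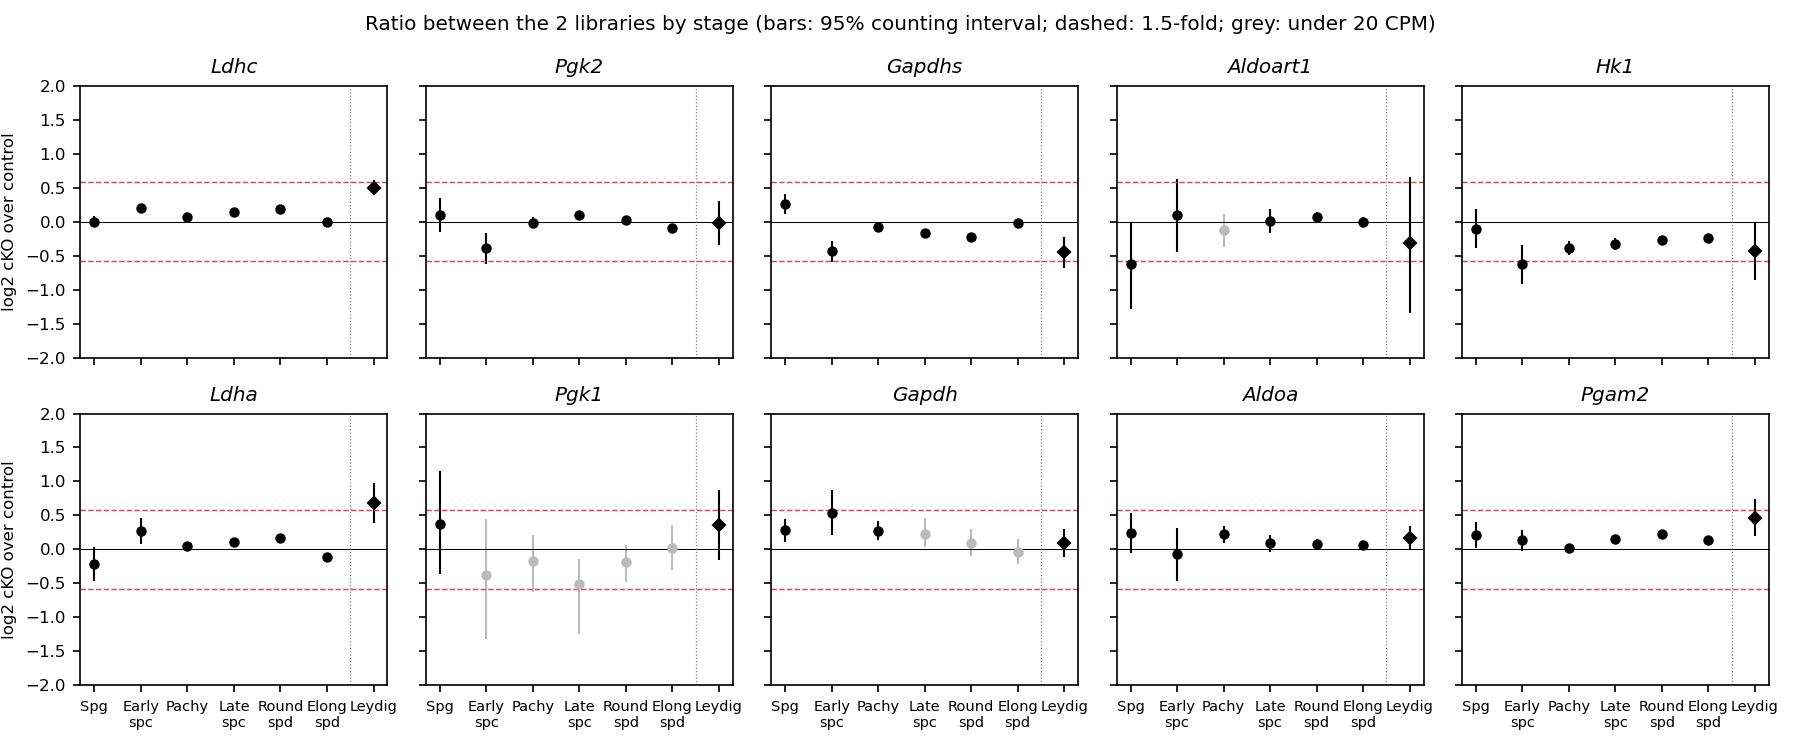
Log2 ratio of the cKO over the control library for each gene by gated stage and in Leydig cells (diamonds), with 95% counting intervals; dashed lines mark 1.5-fold and grey points genes under 20 CPM. Hk1 is below 0 in all 6 stages and in Leydig cells, and most other points lie within 1.5-fold.

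The members were set within a list of 44 genes of glycolysis, lactate and glucose transport. Of the genes with at least 20 CPM, 0 of 26 were higher and 3 lower in spermatogonia, and 0 higher and 1 lower of 26 in early spermatocytes, beside 9.96% and 11.5% of all genes past the fold in either direction. Of all genes, 135 were higher and 591 lower in spermatogonia, and 229 higher and 601 lower in early spermatocytes. In round spermatids 0 were higher and 1 lower of 24, where 4.82% of all genes were past the fold, and 0 were past 1.5-fold in pachytene, late and elongating cells. The list's median ratio ran from -0.01 in elongating spermatids to 0.12 in early spermatocytes. Besides Aldoart1 and Hk1, the genes past 1.5-fold were the phosphofructokinase gene Pfkp (69 and 32 UMIs) and the glucose carrier gene Slc2a3 (181 and 94 UMIs) in spermatogonia, and the glucose phosphate isomerase gene Gpi1 in round spermatids. Gpi1 had 4032 and 2506 UMIs there, 140 against 91.4 CPM, a log2 ratio of -0.61 (-0.69 to -0.55). Along the pathway the highest gene in control elongating spermatids was Hk1 at 485 CPM, Gpi1 at 506, Aldoart2 at 347, Tpi1 at 286, Gapdhs at 3120, Pgk2 at 1046, Pgam2 at 949, Eno1 at 126, Pkm at 209 and Ldhc at 3436. Ldhc, Gapdhs, Pgk2 and Pgam2 were thus, as counted, the 4 most abundant of these 10. Among the carrier genes in pachytene cells, Slc2a3 and Bsg, a partner of the lactate carriers, were level in control at 728 and 727 CPM, and Bsg was the higher in cKO, at 844 against 655. In elongating spermatids Bsg was the highest in both libraries, at 226 and 204 CPM.

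The genes whose levels were most like each testis form were found over the 12 combinations of stage and library, among 4151 genes with at least 100 CPM in a stage, with members and gating markers left out. Ldhc was most like Cetn1, a centrin gene of the testis, with a Pearson correlation of 0.991, then 1700065L07Rik and Spata4. Gapdhs was most like 1700001C19Rik, Sh3rf2 and Otub2, with correlations of 0.999, 0.999 and 0.998. Pgk2 was most like D7Ertd443e (0.981), Dnajb4 and Tent5c, and Aldoart1 was most like 1700011L22Rik (0.988), Ctag2 and Frat1. The control level of Cetn1 went from 387 CPM in spermatogonia to 1805 in late spermatocytes, and that of 1700001C19Rik from 74.2 in pachytene cells to 1449 in elongating spermatids. The 12 points share 2 libraries and their free RNA, and the correlations are descriptions. Among the members, Gapdhs and Hk1 had a correlation of 0.97, Gapdhs and Aldoa 0.93, and Pgam2 and Gapdh -0.94.

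The 10 nearest measured protein-coding genes on each side of every member were also compared between the libraries over all cells. None of the 20 neighbours of Ldhc, Ldha, Pgk2, Pgk1, Gapdh, Aldoart1, Aldoa or Pgam2 was past 1.5-fold, where 2.14% of all genes were. Of the 20 neighbours of Gapdhs, 1 was, Cep89 at -0.60, and of those of Hk1, 2 were, Ranbp2 at -0.59 and Jmjd1c at -0.70. The median ratio of the neighbours of Hk1 was -0.11, and for the other 9 members it ran from -0.01 to 0.11.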

How the data were processed

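The study profiled RNA of whole mouse testis and chromatin of sorted cKIT+ spermatogonia; 13 of its 39 libraries were used. The members and gene lists were chosen with earlier results of these data known. UMI counts per gene and barcode were deposited for every barcode of the kit, per the file headers (Cell Ranger), with mm10 and Seurat 4.1.0 named in the submitters' processing notes. Barcodes with at least 3000 UMIs, 500 genes and at most 20% mitochondrial UMIs were kept. Each took the marker list with the highest mean z-score, if at least 0.5 and with 3 markers detected; 1261 control and 842 cKO cells took none. Doublets were kept, and Scrublet was an alternative. UMIs were summed per library and stage, as CPM; with 1 library per genotype no test was made. Intervals are exact Poisson, exact binomial (Clopper-Pearson) or exact conditional ones at 95%, and cover counting error only. The floor for a count of 0 was 3 counts. The named genes were all members, the highest gene of each step of the glycolysis list, its genes past 1.5-fold, and the 3 most alike for each testis form. ATAC lists give each peak's fold enrichment over background (a ratio) and CUT&Tag lists the summed signal of each region, both as deposited by the authors per library; the submitters' processing notes name cutadapt, Bowtie2, MACS2, SEACR and mm10. Peaks counted as present within 1 kb of a RefSeq start. Sequences are from RefSeq, and 9 of 10 members matched, all but Aldoart1. Computation used Python 3.11.15, scanpy 1.11.5, leidenalg 0.10.2 and scipy 1.17.1, and the counting steps were tested on simulated data. The 26 bulk RNA libraries give transcript IDs without gene names and were not analysed here.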

Additional observations from a re-analysis of the deposited data

How the results depend on the processing

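The count of members past 1.5-fold, 2 of 51 combinations of gene and stage, was 1 with barcodes of at least 2000 UMIs, with barcodes called by Scrublet left out, with no mitochondrial limit, with 5 CPM added and with ratios centred on each stage's median. In these settings 5.41%, 6.88%, 5.97%, 4.52% and 5.84% of all genes were past the fold. The count was 0 with barcodes of at least 5000 UMIs and at 2-fold, beside 6.46% and 0.588% of all genes. It was 6 with each cell thinned to 3000 UMIs, where 12.5% of all genes were past the fold, against 6.03% as reported. The cause was not tested. The count was between 2 and 3 under the other alternatives, beside 5.69% to 9.28% of all genes. Hk1 in early spermatocytes stayed below 0 in all 12 alternatives, from -0.45 to -0.80, and Aldoart1 in spermatogonia ranged from -0.17 to -1.93. Of 612 log2 ratios under alternatives, 520 moved by less than their counting interval, 92 by more, and 0 changed sign as a called value. The alternatives of 2-fold and of genes with at least 5 CPM leave every ratio as reported. Their ratios could not move, and they are counted among the 520 and among the 12 alternatives for Hk1. A change of sign was counted only for the 2 combinations past 1.5-fold as reported. Of 419 pair shares under alternatives, those with free RNA subtracted included, 271 stayed within their counting interval and 148 did not. The 36 pair combinations stayed between 34 and 36 under alternatives of cell choice and staging; subtracting free RNA left 24, and the profile of barcodes of 500 to 2000 UMIs left 16. ATAC peaks were present in 53.3% of gene and library combinations, 35.6% with only the stronger peaks, and 52.8% to 55.6% with each library left out; these peak alternatives were chosen after seeing the data. Depth limits Pgk1, Gapdh in later stages and all early-stage values of the 164 cKO early spermatocytes. No paired analysis was possible because each genotype had 1 single-cell library and the peak results come from no test. The alternatives planned for bulk RNA were not run.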
